A study of Mus musculus with 32 samples.

Results

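Inflammatory chemokines were followed here as 10 genes, *Ccl2*, *Ccl3*, *Ccl4*, *Ccl6*, *Ccl7*, *Ccl8*, *Ccl9*, *Cxcl1*, *Cxcl2* and *Cxcl5*, taken by symbol from the 31053 genes of the deposited matrices. Transcripts were counted cell by cell (scRNA-seq) as unique molecular identifiers (UMIs, 1 per captured transcript) in BMSC-OBs, which are bone marrow-derived stromal cells grown in an osteogenic medium. The cells came from 77 Diversity Outbred (DO) mice, an outbred population bred from several inbred founder strains, and were pooled by 4 or 5 mice into 16 pools that are numbered here as in the labels. All pools had the same culture, with ascorbic acid, β-glycerophosphate and dexamethasone (a glucocorticoid) in the medium, and none was treated or left untreated, so pools and cell classes within pools are the only comparisons. A pool mixes mice that were not told apart here. Its value sums their cells, so an animal with more cells or more UMIs weighs more in it. The question was which cells of this mixed culture hold the transcripts of each chemokine, and how far the answer holds from pool to pool.

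Chemokines are small secreted proteins that draw leukocytes along a gradient through G protein-coupled receptors. *Ccl2*, *Ccl7* and *Ccl8* encode monocyte chemoattractants, of which CCL2 and CCL7 act through CCR2, and *Ccl3* and *Ccl4* encode the macrophage inflammatory proteins MIP-1α and MIP-1β. *Ccl6* and *Ccl9* encode chemokines of the CCR1 group, and *Cxcl1*, *Cxcl2* and *Cxcl5* encode neutrophil chemoattractants that act through CXCR2. In bone marrow, stromal cells and resident macrophages are known sources of CCL2 and CXCL1, which bear on the release of monocytes and neutrophils, and many of these genes are classical targets of the transcription factor NF-κB.

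The 10 genes lie in 2 clusters of the mouse genome (GRCm38, GENCODE M21 annotation). *Ccl2* (chr11:82035571-82037453), *Ccl7* (chr11:82045712-82047525) and *Ccl8* (chr11:82115185-82116799) are neighbors on the forward strand. *Ccl9* (chr11:83572919-83578636), *Ccl6* (chr11:83587882-83593087) and *Ccl3* (chr11:83647844-83649355), on the reverse strand, and *Ccl4* (chr11:83662584-83664683), on the forward strand, follow 1456119 bases further on. *Cxcl5* (chr5:90759360-90761624), *Cxcl1* (chr5:90891241-90893115) and *Cxcl2* (chr5:90903871-90905938) are all on the forward strand, and *Cxcl1* and *Cxcl2* are separated by 10755 bases.

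Promoter sequences from RefSeq (GRCm38.p6, 250 bases before to 50 after the start of a gene) were matched for 6 of the 10 genes, *Ccl3*, *Ccl6*, *Ccl8*, *Ccl9*, *Cxcl1* and *Cxcl2*. The windows of *Cxcl1* (chr5:90891085-90891204) and *Cxcl2* (chr5:90903739-90903858), bases 160 to 41 before the start on the forward strand, are printed because these neighbors, which encode ligands of the same receptor, share a run of 14 bases, their longest. The start is that of the promoter sequence. The 250 bases before it end at chr5:90891244 for *Cxcl1* and chr5:90903898 for *Cxcl2*, past the GENCODE starts of 90891241 and 90903871. Distances to the start are therefore not compared between these 2 genes. The capitals mark matches to the NF-κB consensus, searched on both strands, which overlap by all but 1 base.
Cxcl1: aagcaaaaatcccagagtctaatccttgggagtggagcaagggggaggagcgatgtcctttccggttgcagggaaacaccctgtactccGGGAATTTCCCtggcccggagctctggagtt
Cxcl2: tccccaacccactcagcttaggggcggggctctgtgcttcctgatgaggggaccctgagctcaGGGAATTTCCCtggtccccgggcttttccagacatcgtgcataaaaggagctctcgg
The run GGGAATTTCC began 71 bases before the start of *Cxcl1* and 97 bases before that of *Cxcl2*, and stood in 28 of 32851 promoters (0.0852%), whereas any NF-κB consensus match stood in 7.25%. *Ccl9* held an NF-κB consensus match 35 bases before its start and the letters TGANTCA, the AP-1 motif found in 6.75% of promoters, 53 bases before it. *Ccl8* and *Ccl9* held TATAAA on the forward strand, as 7.59% of promoters did. A match is a description of letters in the window and was not related to any measured value.

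From 107853 barcodes, 88909 cells passed the filters, 2578 to 7631 per pool, with medians of 2782 to 15273 UMIs per cell between pools. Cells were placed by marker genes, none of them a chemokine, into a mesenchymal gate (60246 cells, median of 13984.5 UMIs) and a myeloid gate (17064 cells, median of 4628 UMIs), and inside these into classes that are called "-like" because they rest on markers alone. All 16 pools had at least 20 cells of the macrophage-like (8133 cells), osteoblast-like (20524), adipogenic (4528) and contractile (12187) classes. Granulocyte-like cells (1323) reached that number in 11 pools, MHC class II (MHC II) monocyte-like cells (550) in 5 and osteoclast-like cells (491) in 4. Cells that passed both the macrophage and the MHC II monocyte markers (978, in 6 pools) were set apart as MHC II macrophage-like cells after values had been seen, and their values are given as a description. Of all kept cells, 11.0% lay within 1.5-fold of the limit of the mesenchymal gate and 7.83% within 1.5-fold of that of the myeloid gate. More lay near the limits of single classes, as 28.1% of mesenchymal cells did for osteoblast-like and 19.7% for contractile cells, and 11.6% of myeloid cells for macrophage-like cells. Further, the 2197 cells in both gates were left out as likely doublets. Levels are UMIs of a gene per 10000 UMIs of all genes in the summed cells of a class and pool, and since UMIs are counted near transcript ends without scaling to length, levels are compared between classes and pools but not between genes.

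Of the 10 genes, 9 were higher in myeloid than in mesenchymal cells, in 16 of 16 pools each, and *Cxcl5* was not called (edgeR quasi-likelihood test on summed counts with the pool as a block, Benjamini-Hochberg adjusted p at most 0.05). In this comparison 85.5% of 13555 genes tested were called, 42.2% as higher and 43.3% as lower in myeloid cells, so being called sets no gene apart, and the size of the difference carries the description. The median log2 fold change of the 10 genes was 5.54, beside -0.02 over all genes tested. The lowest myeloid pool was above the highest mesenchymal pool for 8 of the 10 genes, the exceptions being *Ccl8* and *Cxcl5*. The share of all genes with such a gap, or with the same direction in every pool, was not computed. These counts therefore set no gene apart either. Within these totals the genes differed widely in how much mesenchymal cells contributed, from 8.71% of all *Ccl6* UMIs to 51.9% of *Cxcl1* and 87.0% of *Cxcl5* UMIs.

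Inside the gates 8 or 9 of the 10 genes passed the filter on low counts. Macrophage-like cells were higher than granulocyte-like cells in 7 of 8 genes and lower in 1, where 70.4% of all genes were called (37.6% higher, 32.7% lower). Against osteoclast-like cells they were higher in 9 of 9 genes, where 11.6% of all genes were higher and 9.21% lower, and against MHC II monocyte-like cells they were higher in 5 of 9 and lower in 1, where 7.64% were higher and 6.79% lower. The median log2 fold changes of the chemokines were 4.12, 3.25 and 1.19, beside 0.09, 0.01 and 0.01 over all genes. Osteoblast-like cells were higher than adipogenic cells in 2 of 8 genes and lower in 4 (78.4% of all genes called), and contractile cells were higher in 1 and lower in 1 (71.9% of all genes called), with medians of -0.23 and 0.15. These counts depend on the scaling between classes. The test used TMM factors, which set the bulk of genes level, and they differed most between osteoblast-like and adipogenic cells (medians of 0.792 and 1.28) and between macrophage-like and granulocyte-like cells (1.27 and 0.818). Scaled to total UMIs alone, as the levels printed here are, and tested again after the data had been seen, the median of all genes moved to -0.69 and 0.74 in these 2 comparisons, to -0.27 for contractile and to 0.17 for MHC II monocyte-like cells. The share of calls that were higher moved from 49.2 to 18.4%, from 53.5 to 80.0%, from 49.8 to 27.2% and from 52.9 to 70.1%. Of the chemokines, osteoblast-like cells were then higher in 0 and lower in 6, contractile cells higher in 0 and lower in 1, and macrophage-like cells higher in 7 and lower in 0 beside granulocyte-like and higher in 6 and lower in 1 beside MHC II monocyte-like cells.

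**Figure D1:**
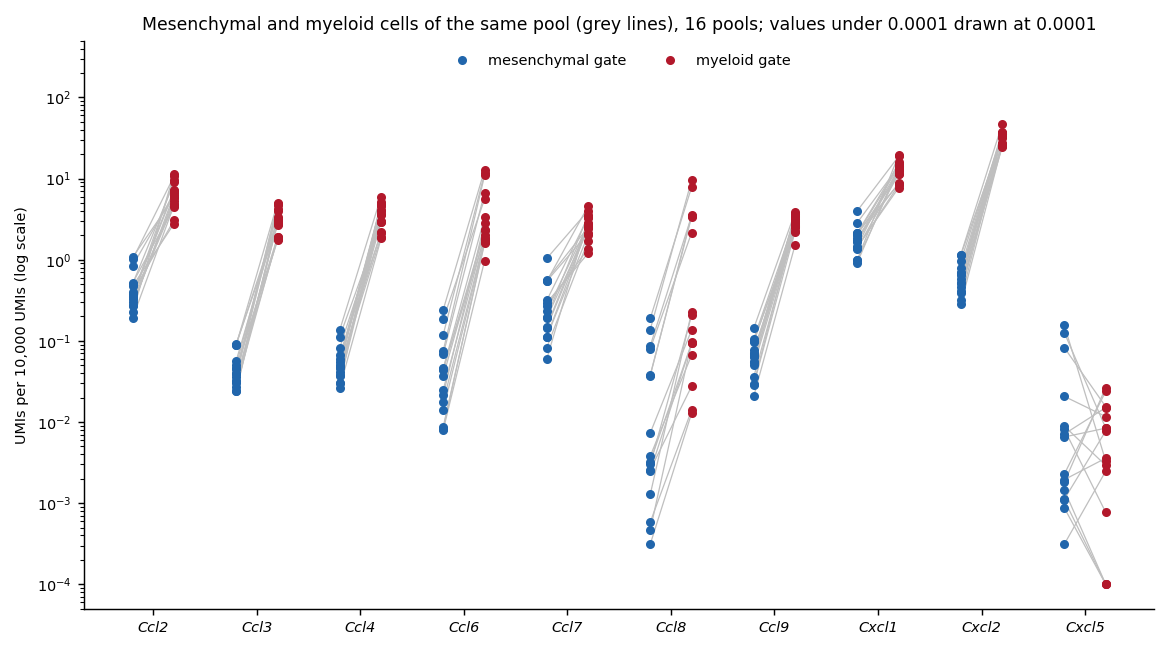
Level of each chemokine gene (UMIs per 10,000 UMIs, log scale) in mesenchymal cells (blue) and myeloid cells (red) of 16 pools, with a line joining the points of a pool. The lines rise in every pool for all genes but *Cxcl5*, which was higher in myeloid cells of 7 of 16 pools.

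*Ccl2* and *Ccl7*, the CCR2 ligands, were highest in macrophages but were also carried by mesenchymal cells. Myeloid *Ccl2* ranged from 2.78 through a median of 6.10 to 11.4 UMIs per 10000, and mesenchymal *Ccl2* from 0.191 through 0.368 to 1.07. The ranges did not overlap, and the log2 fold change was 3.86 (SE 0.20, adjusted p = 1.35e-13). Myeloid *Ccl7* ranged from 1.20 through 2.55 to 4.57 and mesenchymal *Ccl7* from 0.0596 through 0.213 to 1.04, with a log2 fold change of 3.43 (SE 0.25, adjusted p = 4.38e-11). The highest mesenchymal pool thus came close to the lowest myeloid pool for *Ccl7*, and the median ratio of the gates was 12.4 for *Ccl7* and 17.1 for *Ccl2*. Since mesenchymal cells were more numerous and held more UMIs each, they carried 37.3% of all *Ccl2* UMIs and 49.0% of all *Ccl7* UMIs in the culture, against 54.4% and 44.2% in myeloid cells. Averaged over pools the *Ccl7* shares were about even, at 45.7% in mesenchymal and 46.1% in myeloid cells.

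Among myeloid cells, *Ccl2* was at 9.45 ± 3.48 UMIs per 10000 (SD, n = 16 pools) in macrophage-like cells, 2.21 ± 2.15 (n = 5) in MHC II monocyte-like, 0.383 ± 0.125 (n = 4) in osteoclast-like and 0.0760 ± 0.0580 (n = 11) in granulocyte-like cells. *Ccl7* followed the same order, at 3.96 ± 1.27, 0.877 ± 0.746, 0.126 ± 0.0638 and 0.0507 ± 0.0378. The MHC II macrophage-like cells were at 11.4 ± 5.09 in *Ccl2* and 5.23 ± 3.33 in *Ccl7* (n = 6), and the spread over pools overlapped that of macrophage-like cells. T cell-like cells were at 0.126 ± 0.0552 in *Ccl2* and 0.0710 ± 0.0553 in *Ccl7* (n = 4 pools). In those pools, 5, 6, 8 and 14, granulocyte-like cells were higher than T cell-like cells in 1 pool for each gene (*Ccl2* in pool 6, at 0.154 against 0.113, and *Ccl7* in pool 14, at 0.0855 against 0.0563), so their low levels are not read as expression. Macrophage-like cells were higher than granulocyte-like cells by log2 fold changes of 5.97 (SE 0.23, adjusted p = 5.99e-16) for *Ccl2* and 5.65 (SE 0.24, adjusted p = 2.49e-15) for *Ccl7*, where 37.6% of 7412 genes were called as higher in macrophage-like cells. Against MHC II monocyte-like cells (5 pools, 7.64% of 8418 genes higher) the differences were 2.20 (SE 0.39, adjusted p = 0.00367) and 2.17 (SE 0.41, adjusted p = 0.00539), and against osteoclast-like cells (4 pools, 11.6% of 9136 genes higher) 4.12 (SE 0.22, adjusted p = 3.87e-08) and 4.58 (SE 0.23, adjusted p = 2.70e-08). Both monocyte comparisons lost their call when cells were limited to 400 to 6200 UMIs in place of as many detected genes (log2 fold changes of 1.40 and 1.31, adjusted p = 0.0945 and 0.0809).

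Among mesenchymal cells, *Ccl2* was at 0.894 ± 0.835 in adipogenic, 0.713 ± 0.437 in contractile and 0.205 ± 0.130 in osteoblast-like cells (SD, n = 16 pools each). *Ccl7* was at 0.445 ± 0.451, 0.616 ± 0.563 and 0.0589 ± 0.0501. Osteoblast-like cells were lower than adipogenic cells by 1.30 on the log2 scale for *Ccl2* (SE 0.17, adjusted p = 4.37e-07) and by 2.06 for *Ccl7* (SE 0.23, adjusted p = 3.84e-08), where 39.8% of 12095 genes were called as lower. With cells limited by UMI counts the *Ccl2* difference turned to 0.22 (adjusted p = 0.373). Contractile and adipogenic cells did not differ by the test in *Ccl2* (log2 fold change of 0.09, SE 0.16, adjusted p = 0.628), while *Ccl7* was higher in contractile cells by 0.80 (SE 0.26, adjusted p = 0.00801; 35.8% of 11780 genes higher; 12 of 16 pools), a call lost without the pool as a block (0.71, adjusted p = 0.115) and scaled to total UMIs (0.54, adjusted p = 0.0593). The mesenchymal transcripts were held by few cells. The top 1% of osteoblast-like cells held 56.5% of that class's *Ccl2* UMIs and the top 10% held 92.9%, beside 18.3% and 68.2% among macrophage-like cells.

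*Ccl8* split the pools into high and low ones. Myeloid *Ccl8* was at 9.54, 7.84, 3.58, 3.39, 3.48 and 2.16 UMIs per 10000 in pools 5, 6, 7, 8, 14 and 18, and between 0.0129 (2 UMIs, pool 4) and 0.228 in the other 10 pools. These 6 pools stood apart from the rest with no value between 0.228 and 2.16. Within each pool myeloid cells were above mesenchymal cells, by a log2 fold change of 5.58 (SE 0.23, adjusted p = 4.42e-15), but the mesenchymal level in the 6 pools (0.0374 to 0.189) reached the range of the myeloid level in the others. Mesenchymal cells of the other 10 pools were at 0.00731 or less.

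*Ccl8* was densest in macrophage-like cells that also passed the MHC II monocyte markers, a list that holds *Ear2*, *Plac8* and *Ly6c2* beside MHC II genes. Those 978 cells held 44.4% of all *Ccl8* UMIs and the other macrophage-like cells 24.8%. Averaged over the 16 pools the order turned, at 15.6 and 43.7%. The other macrophage-like cells were under the limit of that list but not all free of it, as 84.3% of them had no UMI of its genes. The level in MHC II macrophage-like cells was 21.6, 26.2, 13.6, 10.6, 0.299 and 23.8 UMIs per 10000 in pools 5, 6, 7, 8, 9 and 18. In the other macrophage-like cells the level in pools 5, 6, 7, 8, 14 and 18 was 12.3, 3.94, 4.15, 0.148, 5.65 and 1.25. Between these macrophage classes, pool 8 was therefore high in the MHC II class alone, while its MHC II monocyte-like cells were at 1.49. Pool 9, the only pool with 20 or more MHC II macrophage-like cells and little *Ccl8*, was low in both macrophage classes. MHC II cells made up 32.5, 37.2, 11.7, 40.5, 3.70 and 10.2% of macrophage-like cells in the 6 pools and at most 2.76% elsewhere. T cell-like cells numbered 23, 123, 2, 74, 154 and 8 in the same pools and at most 5 in any other, and the part of either in the *Ccl8* level was not tested. Few cells carried the transcripts, as the top 1% of macrophage-like cells held 82.1% of that class's *Ccl8* UMIs, with 781 in a single cell. *Ccl8* was higher in macrophage-like than in osteoclast-like cells (log2 fold change of 3.61, SE 0.58, adjusted p = 6.99e-04), but none of these 4 pools was high in *Ccl8*. Against MHC II monocyte-like cells the difference of 1.19 (SE 0.87) was not called (adjusted p = 0.409) and moved between 2.20 without pool 8 (adjusted p = 0.0221) and -2.19 with cells limited by UMI counts (adjusted p = 0.0127). In the other 3 class comparisons *Ccl8* fell under the filter on low counts.

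**Figure D2:**
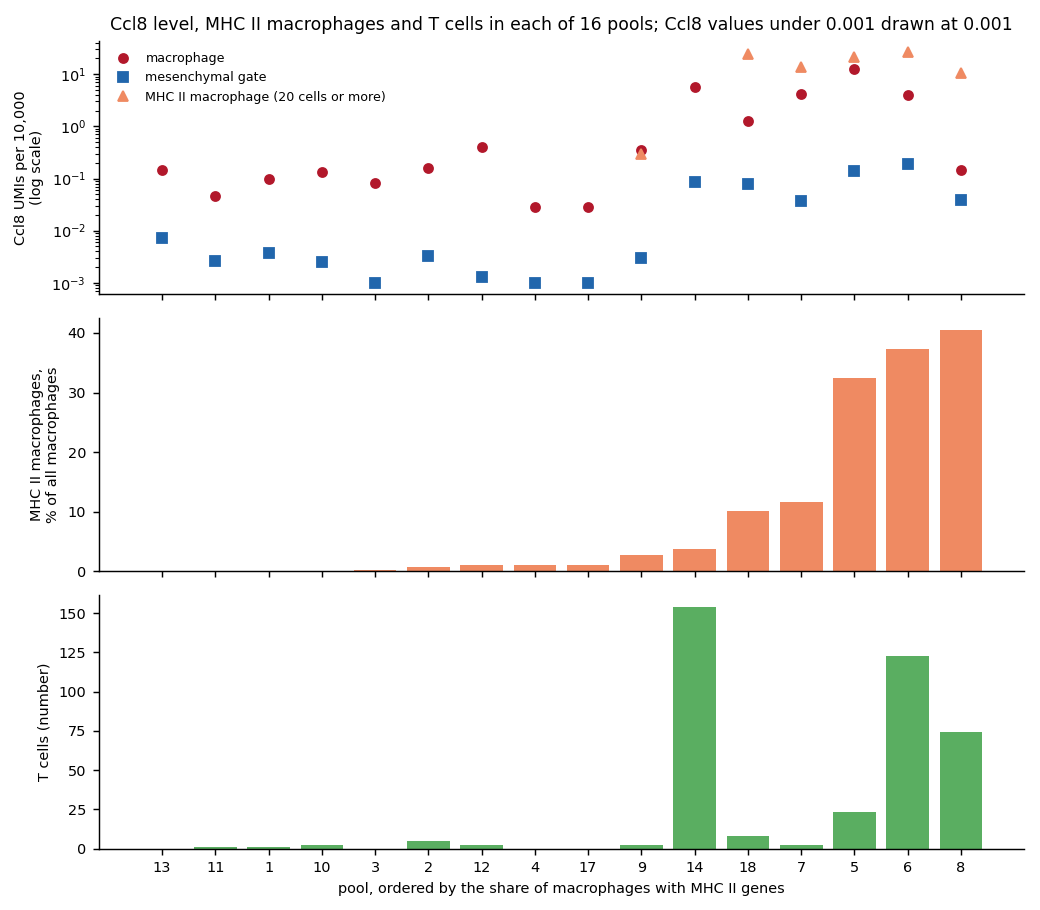
Upper panel, *Ccl8* UMIs per 10,000 (log scale) in macrophage-like cells (red), MHC II macrophage-like cells (orange, pools with at least 20) and mesenchymal cells (blue) of each pool. The bars give MHC II cells as a percent of macrophage-like cells and the number of T cell-like cells, with pools ordered by the former. Pools 5, 6, 7, 8, 14 and 18 stand at the right, and pool 8 has a macrophage-like level of 0.148 beside an MHC II level of 10.6.

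*Ccl3* and *Ccl4*, the MIP-1 genes, were far higher in myeloid cells and parted among them. Myeloid *Ccl3* ranged from 1.73 through 3.05 to 5.01 UMIs per 10000 and mesenchymal *Ccl3* from 0.0241 through 0.0398 to 0.0919 (log2 fold change of 6.10, SE 0.18, adjusted p = 1.25e-17). Myeloid *Ccl4* ranged from 1.83 through 3.61 to 6.01 and mesenchymal *Ccl4* from 0.0264 through 0.0478 to 0.135 (6.02, SE 0.20, adjusted p = 6.17e-17). Neither pair of ranges overlapped, and the median ratio of the gates was 74.9 and 74.7.

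Granulocyte-like cells carried *Ccl3* but little *Ccl4*. *Ccl3* was at 4.17 ± 2.64 UMIs per 10000 (SD, n = 11 pools) in granulocyte-like and 3.89 ± 1.45 (n = 16) in macrophage-like cells. In the 11 pools with both, the macrophage-like level was 4.29 and was the higher one in 7 pools. With TMM factors the test nevertheless called *Ccl3* lower in macrophage-like cells by 0.50 on the log2 scale (SE 0.21, adjusted p = 0.0363; 32.7% of genes lower). Scaled to total UMIs the value turned to 0.13 (adjusted p = 0.524), so no direction is read, and the call was also lost with DESeq2 (-0.28, adjusted p = 0.294), with RLE size factors (-0.33, adjusted p = 0.141) and without the pool as a block (-0.60, adjusted p = 0.0653). *Ccl4* was at 0.244 ± 0.227 in granulocyte-like and 5.11 ± 1.68 in macrophage-like cells, a log2 fold change of 3.90 (SE 0.27, adjusted p = 1.50e-11). T cell-like cells had 1.14 in pool 5 and 0.0255 to 0.113 in the other 3 pools, so the granulocyte-like average was under the former and above the latter. Macrophage-like cells were higher than MHC II monocyte-like cells in *Ccl4* by 2.03 (SE 0.32, adjusted p = 0.00178), and the difference in *Ccl3* of 1.05 (SE 0.34) was not called (adjusted p = 0.0651), but passed scaled to total UMIs (1.19, adjusted p = 0.0272). Osteoclast-like cells, which arise by fusion of macrophage-lineage precursors, were lower than macrophage-like cells in both genes (log2 fold changes of 2.16, SE 0.27, adjusted p = 1.14e-04 for *Ccl3* and 3.25, SE 0.23, adjusted p = 6.10e-07 for *Ccl4*). Between osteoblast-like and adipogenic cells *Ccl4* had no direction that held. Its level was 0.0494 and 0.0560, lower in the osteoblast-like cells of 10 of 16 pools, whereas the test with TMM factors gave a log2 fold change of 0.51 (SE 0.19, adjusted p = 0.0170; 38.5% of genes higher) that turned to -0.18 scaled to total UMIs (adjusted p = 0.385) and was not called without the block (0.49, adjusted p = 0.0750). *Ccl3* likewise went from 0.28 (SE 0.17, adjusted p = 0.148) to -0.41 (adjusted p = 0.0390). The *Ccl3* and *Ccl4* differences between contractile and adipogenic cells were not called.

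*Ccl6* and *Ccl9*, of the CCR1 group, had higher average levels in MHC II monocyte-like than in macrophage-like cells. Myeloid *Ccl6* ranged from 0.973 through 2.33 to 12.8 UMIs per 10000, with pools 5, 6, 7, 8 and 18 at 11.6, 12.8, 6.70, 10.9 and 5.61. These are pools that were also high in *Ccl8*. Mesenchymal *Ccl6* ranged from 0.00797 through 0.0400 to 0.241 (log2 fold change of 6.40, SE 0.18, adjusted p = 9.17e-18). Myeloid *Ccl9* varied less, from 1.54 through 2.76 to 3.89, beside 0.0208 through 0.0638 to 0.143 in mesenchymal cells (5.51, SE 0.14, adjusted p = 1.43e-18). Neither pair of ranges overlapped.

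*Ccl9* was at 5.45 ± 0.627 UMIs per 10000 (SD, n = 5) in MHC II monocyte-like cells, 3.47 ± 0.647 (n = 16) in macrophage-like, 1.45 ± 1.07 (n = 4) in osteoclast-like and 0.0814 ± 0.0903 (n = 11) in granulocyte-like cells. It was the single chemokine called as lower in macrophage-like than in MHC II monocyte-like cells, by 0.77 on the log2 scale (SE 0.16, adjusted p = 0.00881; 6.79% of genes lower), and this call was lost with cells limited by UMI counts (-0.69, adjusted p = 0.0770). *Ccl6* was at 13.8 ± 9.68 in MHC II monocyte-like, 14.1 ± 8.37 (n = 6) in MHC II macrophage-like and 4.12 ± 2.46 in macrophage-like cells, which held 9.36, 20.6 and 32.1% of its UMIs. Of those in MHC II macrophage-like cells 7263 came from pool 8 alone, and the shares averaged 4.00, 8.61 and 50.2% over pools. In the 5 pools with MHC II monocyte-like cells the macrophage-like level was 5.68, but pool 9, with MHC II monocyte-like cells at 1.42, kept the difference of -1.13 (SE 0.46) from being called (adjusted p = 0.133), and without it the value was -1.57 (adjusted p = 0.0298). Against granulocyte-like cells, macrophage-like cells were higher by 4.35 (SE 0.27, adjusted p = 2.46e-12) in *Ccl9* and 2.39 (SE 0.40, adjusted p = 1.60e-05) in *Ccl6*, with granulocyte-like *Ccl6* between 0 and 5.27 over pools. Osteoclast-like cells were lower than macrophage-like cells, by log2 fold changes of 1.76 (SE 0.30, adjusted p = 0.00114) in *Ccl9* and 3.58 (SE 0.37, adjusted p = 2.09e-05) in *Ccl6*. Osteoblast-like cells were below adipogenic cells in *Ccl9* by 1.11 (SE 0.20, adjusted p = 2.97e-05), at 0.0333 ± 0.0198 against 0.111 ± 0.0423, levels on either side of that of T cell-like cells (0.0781 ± 0.0331).

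*Cxcl1* and *Cxcl2*, neighboring genes of CXCR2 ligands, were both highest in macrophage-like cells but differed in the share that mesenchymal cells held. Myeloid *Cxcl2* ranged from 24.5 through 34.2 to 47.2 UMIs per 10000 and mesenchymal *Cxcl2* from 0.282 through 0.618 to 1.16 (log2 fold change of 5.73, SE 0.14, adjusted p = 5.68e-19). Myeloid *Cxcl1* ranged from 7.73 through 13.0 to 19.5 and mesenchymal *Cxcl1* from 0.923 through 1.71 to 4.01 (2.85, SE 0.15, adjusted p = 1.33e-13). The median ratio of the gates was 51.5 for *Cxcl2* and 6.89 for *Cxcl1*. Mesenchymal cells held 51.9% of all *Cxcl1* UMIs and 14.1% of all *Cxcl2* UMIs, although neither gene's ranges overlapped between the gates.

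After each cell was thinned to 2000 UMIs, 79.1% ± 4.02 of myeloid and 10.1% ± 6.05 of mesenchymal cells had a *Cxcl2* UMI (SD, n = 16 pools), and 62.8% ± 8.32 and 17.6% ± 5.50 had a *Cxcl1* UMI. Without thinning these shares were 84.6% and 31.7% for *Cxcl2* and 70.3% and 40.9% for *Cxcl1*, and 2889 myeloid and 6618 mesenchymal cells were too shallow to be thinned. T cell-like cells (median of 4192 UMIs, n = 4 pools) had shares of 6.43% ± 4.60 and 6.44% ± 3.80 after thinning, so the mesenchymal share stood above theirs by more for *Cxcl1* than for *Cxcl2*. Mesenchymal cells were deeper (median of 13984.5 UMIs). How transcripts carried over between cells weigh in shallow and deep cells was not tested. The T cell-like share is therefore a comparison and not a measured background. The same comparison for the other genes gave mesenchymal shares above the T cell-like ones for *Ccl2* (5.67% against 2.87%), *Ccl7* (3.74% against 1.35%) and *Ccl3* (1.17% against 0.449%) and below them for *Ccl4*, *Ccl6*, *Ccl8* and *Ccl9* (0.642 to 1.51% against 1.79 to 2.62%). *Cxcl5* had no UMI in 374 T cell-like cells, which allows a share of up to 0.802% of cells with a UMI. The pools with T cell-like cells were 5, 6, 8 and 14, all high in *Ccl8*, so the shares were also compared within these 4 pools. There the mesenchymal share was higher in 4 of 4 pools for *Ccl2*, *Ccl7* and *Cxcl1* (20.2% against 6.44% for *Cxcl1*), also in 4 of 4 for *Cxcl5* (0.310% against 0), and in 3 for *Ccl3*, *Cxcl2* (9.21% against 6.43%) and *Ccl6* (1.99% against 1.94%). It was higher in 2 for *Ccl9* and in 1 for *Ccl4* and *Ccl8*. The mesenchymal share of *Ccl4*, *Ccl6*, *Ccl8* and *Ccl9* was thus near or under the T cell-like share in the same pools. By level, mesenchymal cells were above T cell-like cells in 4 of the 4 pools for *Ccl6* and in 3 for *Ccl8* and *Ccl9*. T cells can themselves make CCL3 and CCL4.

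Within myeloid cells, macrophage-like cells had 40.4 ± 11.7 UMIs per 10000 of *Cxcl2* (SD, n = 16), MHC II monocyte-like cells 18.6 ± 5.33 (n = 5), osteoclast-like cells 15.4 ± 3.77 (n = 4) and granulocyte-like cells 9.72 ± 6.59 (n = 11). *Cxcl1* was at 15.5 ± 4.50, 5.32 ± 2.87, 8.08 ± 2.82 and 0.325 ± 0.211. T cell-like cells averaged 0.330 ± 0.151 over fewer pools, and were higher than granulocyte-like cells in 0 of the 4 pools with both. Granulocyte-like cells thus carried *Cxcl2* and *Ccl3* and little *Cxcl1*. The differences to macrophage-like cells were 1.78 (SE 0.26, adjusted p = 2.19e-06) for *Cxcl2* and 4.88 (SE 0.23, adjusted p = 2.40e-14) for *Cxcl1*. Against MHC II monocyte-like cells they were 1.12 (SE 0.25, adjusted p = 0.0131) and 1.58 (SE 0.27, adjusted p = 0.00284), and the *Cxcl2* call was lost without pool 5 (1.04, adjusted p = 0.0717) and with stricter gates (0.64, adjusted p = 0.186). The differences between macrophage-like and osteoclast-like cells were 1.05 (SE 0.21, adjusted p = 0.00356) for *Cxcl1* and 1.30 (SE 0.20, adjusted p = 5.15e-04) for *Cxcl2*, smaller in size than the 1.76 to 4.58 of the CC genes. Both were lost with cells limited by UMI counts, which left 2 pools (0.15 and 0.39, adjusted p = 0.908 and 0.676).

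**Figure D3:**
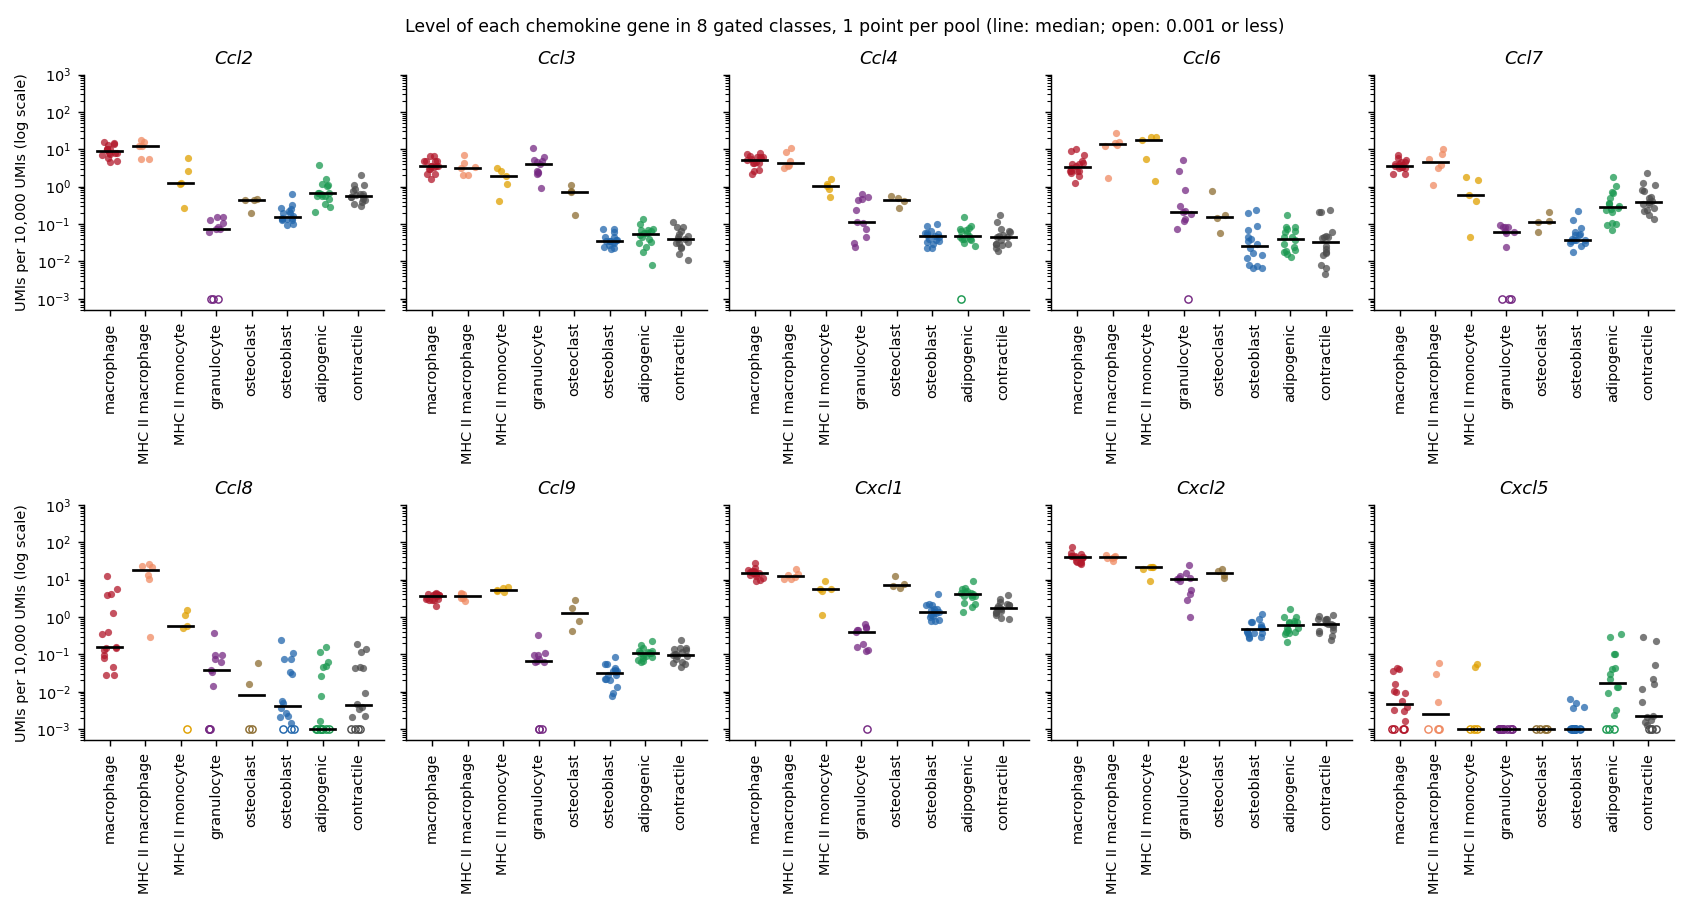
Level of each chemokine gene (UMIs per 10,000, log scale) in 8 classes, with a point per pool of at least 20 cells, the median as a line and levels of 0.001 or less as open circles. Granulocyte-like cells sit near the macrophage-like level for *Ccl3* (4.17 and 3.89 on average) and far under it for *Ccl2*, *Ccl4*, *Ccl7*, *Ccl9* and *Cxcl1*.

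Among mesenchymal cells, *Cxcl1* was highest on average in adipogenic cells, at 4.11 ± 1.85 UMIs per 10000, beside 1.87 ± 0.803 in contractile and 1.55 ± 0.849 in osteoblast-like cells (SD, n = 16 each). The ranges overlapped between pools, but within pools osteoblast-like cells were lower than adipogenic cells by 0.73 on the log2 scale (SE 0.14, adjusted p = 7.81e-05), and contractile cells by 0.85 (SE 0.09, adjusted p = 1.48e-08; 36.1% of genes lower). With cells limited by UMI counts these values were 0.036 (adjusted p = 0.920) and -0.24 (adjusted p = 0.338), so neither call held among the shallower cells, and the first was also lost with stricter gates (-0.32, adjusted p = 0.0761). *Cxcl1* remained lower in both classes scaled to total UMIs (log2 fold changes of -1.41 and -1.11). *Cxcl2* was at 0.532 in osteoblast-like, 0.653 in adipogenic and 0.661 in contractile cells, and was lower in osteoblast-like than in adipogenic cells in 13 of 16 pools. The test with TMM factors gave the opposite direction (0.39, SE 0.11, adjusted p = 0.00276), which turned to -0.29 scaled to total UMIs (adjusted p = 0.0182) and was not called without the block (0.40, adjusted p = 0.110) or with stricter gates (0.33, adjusted p = 0.0571), so whether *Cxcl2* differs between these classes rests on the scaling.

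*Cxcl5*, a CXCR2 ligand of epithelial and stromal cells, was rare, with 2356 UMIs in 492 cells. Its mesenchymal level was 0.0825, 0.126 and 0.155 UMIs per 10000 in pools 6, 7 and 18, 0.0207 in pool 8 and between 0.000313 and 0.00890 in the other 12 pools. Its myeloid level was 0 in pools 4, 11 and 17, where 3 UMIs would give 0.0193, 0.00691 and 0.0141, and at most 0.0266 elsewhere. The difference between the gates was not called (log2 fold change of -0.79, SE 0.69, adjusted p = 0.282), as 7 of 16 pools were higher in myeloid cells, and the gene fell under the filter on low counts in the other comparisons. Adipogenic cells had 0.0632 ± 0.104 and contractile cells 0.0391 ± 0.0853 (SD, n = 16), while osteoblast-like cells were at 0.00158 ± 0.00202. Single cells carried much of this, as 197 of 588 contractile and 140 of 368 adipogenic UMIs lay in 1 cell each, and mesenchymal cells in no class held 39.6% of all *Cxcl5* UMIs. In pool 18, 9 B cell-like cells held another 131 UMIs (7.81 per 10000, with 75 in 1 cell), 5.56% of the total, and no other B cell-like cell had any. No UMI was found in 1292 granulocyte-like, 345 osteoclast-like or 374 T cell-like cells of the pools compared, which allows levels of up to 0.00446, 0.00879 and 0.0133 UMIs per 10000.

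Macrophage markers were also seen in mesenchymal cells, and were used to read the chemokine levels there. The 7 markers, among them the complement genes *C1qa*, *C1qb* and *C1qc*, stood in mesenchymal cells at 1.35% ± 0.727 of their myeloid level (SD, n = 16 pools, range of 0.616 to 3.08%). *Ccl6* stood at 1.30% ± 0.758, with a mean log2 ratio to the markers of its pool of -0.09 (above them in 7 of 16 pools, two-sided exact permutation test over signs, p = 0.377). *Ccl3* (1.60%), *Ccl4* (1.72%), *Cxcl2* (1.96%) and *Ccl9* (2.33%) were above the pooled markers in 13, 14, 15 and 16 pools, by mean log2 ratios of 0.23, 0.32, 0.62 and 0.83 (adjusted p of 0.00373, 0.00048, 0.000102 and 6.10e-05 by the same exact test), but lay within the range of the single markers, of which *Stab1* was highest at 2.44%. *Ccl8* was at 2.99% and above the markers in 14 pools (mean log2 ratio of 0.89, adjusted p = 0.00305, exact). Its highest value, 9.32% in pool 11, rested on 16 mesenchymal and 12 myeloid UMIs. The pools high in *Ccl8* were at 1.04 to 3.72%. *Ccl2* at 8.05% ± 4.99, *Ccl7* at 11.8% ± 8.65 and *Cxcl1* at 14.9% ± 5.81 lay above the markers in 16 of 16 pools, with mean log2 ratios of 2.49, 2.90 and 3.50. For these 3 genes p was 3.05e-05 by the same exact test, the smallest that 16 pools allow, and 6.10e-05 after adjustment over the 10 genes. The marker *Stab1* was itself above the pooled markers in 16 of 16 pools, with a mean log2 ratio of 0.93, and single markers were not tested. These p-values alone therefore do not set a gene apart from a single macrophage marker, and the size of the ratio carries the description. *Cxcl5* was above them in 16 of 16 pools, with the 3 pools without a myeloid *Cxcl5* UMI set at their counting floor. This comparison was chosen after values had been seen.

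**Figure D4:**
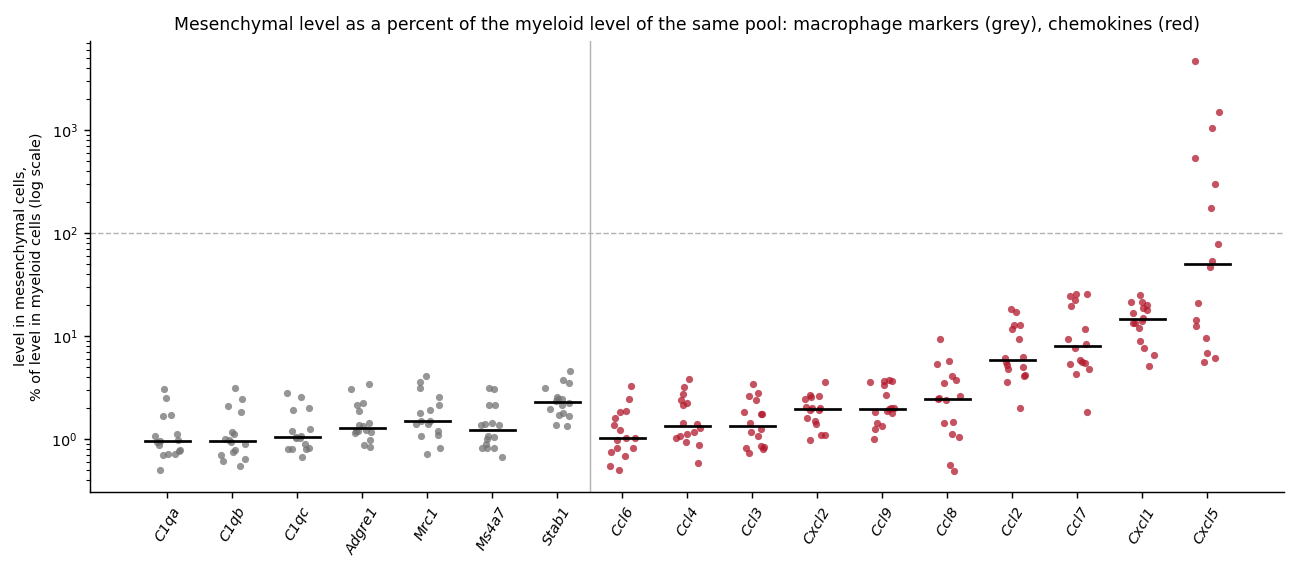
Level in mesenchymal cells as a percent of the level in myeloid cells of the same pool (log scale), for 7 macrophage markers (grey) and 10 chemokine genes (red), with a point per pool and the median as a line. *Ccl6*, *Ccl4*, *Ccl3*, *Cxcl2* and *Ccl9* overlap the markers, *Ccl2* and *Ccl7* reach down to 2.00 and 1.84% and overlap them in part, and all points of *Cxcl1* and *Cxcl5* lie above 5%.

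Levels of several chemokines were related over pools, in neighboring and in distant genes. Over 16 pools, 98 relations were computed within the gates between chemokines, and with immediate-early genes and depth, of which 22 passed an adjusted p of 0.05 by Pearson's r and 26 by Spearman's rho (permutation tests, 100000 resamples). In myeloid cells *Ccl2* rose with *Ccl7* (r = 0.85, rho = 0.85, adjusted permutation p = 0.0013 and 0.0018; r = 0.70 without the 2 pools farthest from the median). *Ccl3* rose with *Ccl4* (r = 0.82, rho = 0.78, adjusted permutation p = 0.0017 and 0.0037; r = 0.74 without 2 pools) and with *Cxcl2* (r = 0.81, rho = 0.79, adjusted permutation p = 0.0017 and 0.0031; r = 0.76). *Ccl6* rose with *Ccl9* (r = 0.69, rho = 0.73, adjusted permutation p = 0.0148 and 0.0085; r = 0.52). *Cxcl1* and *Cxcl2* passed by r (0.65, adjusted permutation p = 0.0350) but not by rho (0.55, adjusted permutation p = 0.103), and not by r with stricter gates (0.61, adjusted permutation p = 0.0597). The myeloid values are sums over classes whose numbers differed between pools. MHC II monocyte-like cells numbered 0 to 166, MHC II macrophage-like cells 0 to 403 and granulocyte-like cells 2 to 325 per pool. The part of these numbers in the relations was not tested.

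In mesenchymal cells the same neighbors were related, and so were distant genes, as 15 of 36 pairs of chemokines passed by r. Pairs of other genes were not computed in either gate, so these counts are not read as particular to chemokines. *Ccl2* and *Ccl7* gave r = 0.79 and rho = 0.89 (adjusted permutation p = 0.0017 and 0.0003; r = 0.94 without 2 pools), *Ccl3* and *Ccl4* r = 0.87 and rho = 0.84 (0.0010 and 0.0018; r = 0.88), and *Cxcl1* and *Cxcl2* r = 0.72 and rho = 0.74 (0.0108 and 0.0077; r = 0.56). *Ccl2* also rose with *Cxcl1* (r = 0.86, rho = 0.83, adjusted permutation p = 0.0010 and 0.0018; r = 0.74), and *Cxcl5*, which is on another chromosome than the CC genes, with *Ccl2* (r = 0.77, rho = 0.92, adjusted permutation p = 0.0098 and 0.0003) and *Ccl7* (r = 0.79, rho = 0.90, adjusted permutation p = 0.0017 and 0.0003). No relation with the immediate-early genes or with the median UMIs per cell passed. The number of myeloid cells per mesenchymal cell rose with mesenchymal *Ccl2* (r = 0.67, rho = 0.64) and *Cxcl1* (r = 0.68, rho = 0.68), with adjusted permutation p of 0.0162 and 0.0211 for *Ccl2* and 0.0162 and 0.0210 for *Cxcl1* over 18 relations added after the data had been seen. It passed by rho alone with *Cxcl5* (r = 0.54, rho = 0.72, adjusted permutation p = 0.0850 and 0.0187) and *Ccl7* (r = 0.51, rho = 0.56, adjusted permutation p = 0.0898 and 0.0452). The macrophage markers in mesenchymal cells rose with *Ccl9* there (r = 0.78, rho = 0.89, adjusted permutation p = 0.0052 and 0.0005), *Ccl3* (r = 0.71, rho = 0.65, adjusted permutation p = 0.0162 and 0.0211) and *Cxcl2* (r = 0.67, rho = 0.62, adjusted permutation p = 0.0162 and 0.0235). They passed by rho alone with *Ccl2*, *Ccl6*, *Ccl7* and *Cxcl5* (0.61 to 0.71), and by neither with *Ccl4* and *Cxcl1*. The part of these markers in the relations between chemokines of mesenchymal cells was not tested. *Ccl8* was left out, since its pools fall into separate clusters. *Cxcl5* was kept although it too was high in few pools, and the top 1% of mesenchymal cells held 100% of its UMIs there. Its relations therefore rest on few cells.

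**Figure D5:**
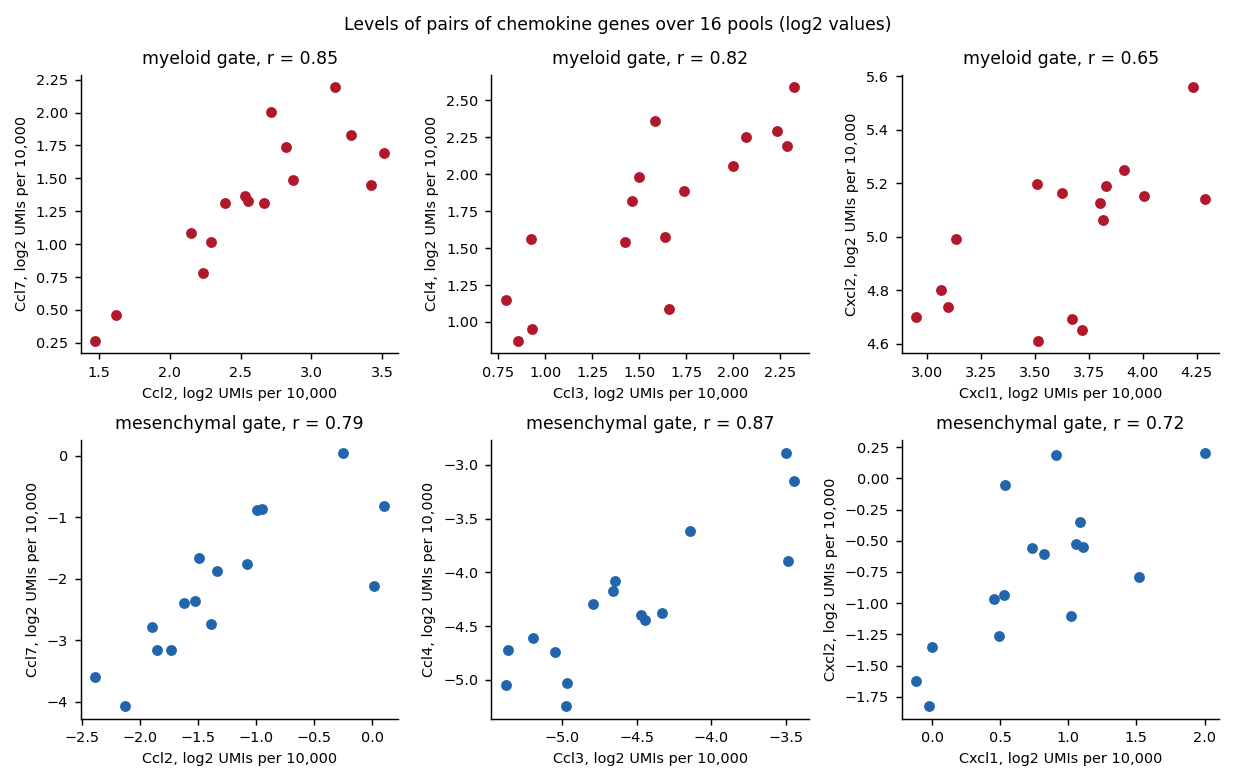
Levels of 3 pairs of neighboring chemokine genes (log2 of UMIs per 10,000) in myeloid cells (red) and mesenchymal cells (blue), with a point per pool (n = 16) and Pearson's r in each title. The points rise from left to right in all 6 panels, with r from 0.65 for *Cxcl1* and *Cxcl2* in myeloid cells to 0.87 for *Ccl3* and *Ccl4* in mesenchymal cells.

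Relations in single cells were computed in 5 classes and are given as a description. Among 7261 macrophage-like cells with at least 2000 UMIs, the median over pools of Spearman's rho was 0.61 for *Ccl2* and *Ccl7* (0.53 to 0.73), 0.60 for *Cxcl1* and *Cxcl2* (0.48 to 0.70) and 0.50 for *Ccl3* and *Ccl4* (0.38 to 0.64). In osteoblast-like, adipogenic and contractile cells the medians were lower, at 0.12, 0.22 and 0.33 for *Ccl2* and *Ccl7*, 0.21, 0.20 and 0.22 for *Cxcl1* and *Cxcl2*, and 0.14, 0.07 and 0.10 for *Ccl3* and *Ccl4*, and in granulocyte-like cells that of *Cxcl1* and *Cxcl2* was 0.08 (5 pools) and that of *Ccl3* and *Cxcl2* 0.50 (9 pools). In macrophage-like cells *Ccl3* had a higher rho with its distant partner *Cxcl2* (0.42) than with *Ccl6* (0.05), which lies nearer to it on chromosome 11. Cells of a pool share their library, and deep cells have more UMIs of every gene. Most mesenchymal cells had no UMI of these genes. All 4528 adipogenic cells held 244 *Ccl3* UMIs, beside 17886 in 8133 macrophage-like cells, and the adipogenic value for *Ccl3* and *Ccl4* rests on 5 pools. The lower rho in mesenchymal classes is therefore not read as a looser relation.

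Among genes other than the 10 chemokines, those whose pattern was most like a chemokine were found by Pearson's r of log2(CPM + 10) over 133 sums of a class in a pool, which share pools and depth. Some chemokines were closer to each other than to any such gene, as *Ccl2* was to *Ccl7* (0.939), and *Ccl6* was as close to *Ccl9* (0.897) as to these genes. For *Cxcl2* they were *Clec4d* (0.965), *Tnf* (0.961) and *Tlr2* (0.954), and for *Ccl3* *Clec4e* (0.957), *Slc7a11* (0.957) and *Alox5ap* (0.953). *Ccl9* was most like *Emilin2* (0.952), *B4galt5* (0.933) and *Cd274* (0.925), *Ccl4* like *Adgre1* (0.924), *Tnf* (0.915) and *Cd93* (0.913), and *Ccl6* like *Bst1* (0.897), *Wfdc17* (0.893) and *Emilin2* (0.893). *Ccl2* was most like *Gdf15* (0.878), *Dab2* (0.871) and *C1qa* (0.864), and *Ccl7* like *F13a1* (0.819), *Rab3il1* (0.815) and *Mrc1* (0.807). *Adgre1*, *C1qa* and *Mrc1* are markers that set the macrophage-like class. Their likeness to a gene that is high in that class is therefore in part fixed by the gating. *Ccl8* was most like *Arg1* (0.889), *Ccl12* (0.873) and *Mgl2* (0.857), and *Cxcl1* like *Ctsl* (0.911), *Pmp22* (0.906) and *Cttnbp2nl* (0.901). *Cxcl5* had no close match, its highest values being 0.598 for *Vegfd* and 0.584 for *Osr1* and *C1s1*.

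Of the other chemokine ligands, 15 of 21 were tested between the gates, 9 were higher in myeloid cells and 5 lower, where 85.5% of all genes were called. The highest were *Ccl12* (log2 fold change of 6.50, SE 0.24), *Pf4* (6.34, SE 0.21) and *Ccl24* (5.82, SE 0.22), and the lowest *Cx3cl1* (-1.94, SE 0.17), *Cxcl12* (-1.48, SE 0.09), the stromal retention signal for hematopoietic cells, and *Cxcl14* (-1.01, SE 0.12). Of the receptors, 11 of 18 were tested, 9 were higher in myeloid cells, led by *Ccr2* (6.35, SE 0.28), the receptor of CCL2, and 2 were lower, the scavenging receptors *Ackr3* (-3.94, SE 0.17) and *Ackr4* (-2.78, SE 0.08). *Cxcr2*, the receptor of CXCL1, CXCL2 and CXCL5, was higher in granulocyte-like than in macrophage-like cells (log2 fold change of -6.76, SE 0.28, adjusted p = 1.73e-15 by edgeR). The NF-κB and inflammation list had 18 of 24 genes higher and 4 lower in myeloid cells, with *Il1b* (6.45, SE 0.17), *Tnf* (6.44, SE 0.16) and *Il1a* (6.15, SE 0.17) highest and *Lif* (-1.99, SE 0.17) lowest. Of 11 immediate-early genes 4 were higher and 6 lower, and the median log2 fold changes of the 4 lists were 2.77, 5.51, 2.51 and -0.70, beside -0.02 over all genes.

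Within the gates, macrophage-like cells were below MHC II monocyte-like cells in *Ccr2* (-4.46, SE 0.37, adjusted p = 2.9e-05 by edgeR) and *Il1b* (-2.02, SE 0.38, adjusted p = 0.0049) and above them in *Ccl2*. The lists went both ways there, with 2 of 8 receptors higher and 2 lower. In the NF-κB list 3 of 20 genes were higher and 5 lower (7.64% and 6.79% of all genes). Macrophage-like cells were also compared with granulocyte-like cells. They were above granulocyte-like cells in 14 of 20 genes of the NF-κB list and below in 4 (37.6% and 32.7% of all genes), or in 16 and 2 scaled to total UMIs. Adipogenic cells were above osteoblast-like cells in 7 of 10 other ligands tested, with *Cxcl12* (log2 fold change of -6.96, SE 0.23) and *Cxcl9* (-6.53, SE 0.31) furthest apart, and below them in 1 (39.8% and 38.5% of all genes), or in 9 and 0 scaled to total UMIs. Of the NF-κB list, 14 of 22 genes were lower in osteoblast-like than in adipogenic cells and 4 higher, *Ptgs2* most (2.98, SE 0.12), or 17 and 2 scaled to total UMIs. Of the immediate-early genes 5 were higher and 4 lower, but 2 and 7 scaled to total UMIs, so their direction rests on the scaling. Contractile cells were below adipogenic cells in 9 of 11 immediate-early genes and above in 0 (36.1% and 35.8% of all genes), or in 10 and 0 scaled to total UMIs.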

How the data were processed

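BMSC-OBs of 16 pools were loaded as Chromium 3′ droplet libraries, and each pool was sequenced in 2 runs of the same droplets (32 samples). The authors aligned reads to GRCm38 (mm10) with Cell Ranger 5.0.0 and deposited raw UMI counts of genes in called barcodes, with no normalization. The deposited counts precede the authors' own filters and their removal of doublets by genotype. The first run was used, and the second was an alternative, since both hold the same molecules. Its totals were 53990642 to 100777353 UMIs per pool, and depth limits classes with few cells. Pairs of pools shared 3 to 28 barcodes, at most 0.434% of the smaller pool.

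Cells were kept with 400 to 6200 detected genes and at most 10% mitochondrial, 20% *Rpl* and 15% *Rps* UMIs. The study states the limits of 400 and 6200 for reads, and UMI counts were an alternative. No doublet caller was run, and cells in both gates were left out as doublets. A cell entered a gate with at least 4 of 8 markers and at least 20 (mesenchymal) or 30 (myeloid) summed UMIs per 10000. Classes inside gates were set likewise by 3 or 4 markers, with limits set on the distribution over cells. Basophil or mast cell markers were also used inside the myeloid gate, a change made after cells had been seen. Other myeloid cells in 2 classes were in no class. The members and lists were chosen with earlier results of these data known.

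Counts were summed per pool and class (at least 20 cells) and tested with edgeR 4.0.16 in R 4.3.3 (filterByExpr, TMM, quasi-likelihood, pool as a block), with Benjamini-Hochberg adjustment over all genes tested. DESeq2 1.42.0 was an alternative, as were RLE size factors, no filter on low counts, no block, stricter gates, cells in both gates kept, limits on UMI counts, no pool 13, at least 50 cells and, added after seeing the data, scaling to total UMIs without TMM factors. The groups of a pool are the same droplets of the same mice, hence the block. Deviations from class means correlated between classes of the same pool with medians of 0.173 to 0.407 over the comparisons (lowest value of -0.0147), and between different pools with medians of -0.0961 to -0.0123. Tested on simulated data with 200 genes changed by 1 on the log2 scale, the test recovered 97.5% of 13555 genes' changed set between the gates and 96% of that for granulocyte-like (7412 genes), 55.5% for MHC II monocyte-like (8418), 67% for osteoclast-like cells (9136), 97.5% for osteoblast-like (12095) and 99.5% for contractile cells (11780). The simulated counts had a common dispersion, no pool effect and as many genes raised as lowered. They therefore do not cover the scaling between classes. P-values of the class comparisons measure how the difference between classes varied from pool to pool. The spread between mice inside a pool was not measured.

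Shares of cells were computed as the expected share after thinning to 2000 UMIs. Relations over pools used log2(CPM + 1) of members with at least 10 UMIs in the median pool. Named genes were all members, up to 3 genes per list and direction with the largest called change, and the 3 genes outside the members most like each in pattern.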

Additional observations from a re-analysis of the deposited data

Results flagged for a closer look

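Of 47 groups of 4 to 10 pools examined for a pool far from the others (Dixon's ratio at the 95% level, which chance exceeds in about 1 of 20 groups), 8 had such a pool. In osteoclast-like cells, *Ccl2* was lowest in pool 1 at 0.199 UMIs per 10000, where the next of 4 pools was at 0.427, and *Ccl6* was highest in pool 2 at 0.765, the next being 0.171. In MHC II monocyte-like cells, *Cxcl2* was lowest in pool 5 at 9.23, beside 19.4 to 21.9 in the other 4 pools. In T cell-like cells, *Ccl4* was highest in pool 5 at 1.14, the next being 0.113. In B cell-like cells, pool 6 was highest in *Ccl6* at 0.128, in *Ccl7* at 0.566 and in *Ccl8* at 0.0748, where the next of 4 pools were at 0.0211, 0.0629 and 0, and pool 10 was highest in *Ccl3* at 0.190, the next being 0.0107. B cell-like cells were few, and none of these values enters a call of the report except those of the osteoclast-like and MHC II monocyte-like cells.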

How the results depend on the processing

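Of the tests of single chemokines under an alternative, 592 kept direction and call, 26 gained a call, 17 lost one and 7 reversed. Scaling to total UMIs, added after seeing the data, reversed *Ccl3* between macrophage-like and granulocyte-like cells (0.127) and *Ccl3* (-0.408), *Ccl4* (-0.175) and *Cxcl2* (-0.286) between osteoblast-like and adipogenic cells, where it moved the median of all genes to 0.74 and -0.69. The other reversals arose with cells limited by UMI counts, which removed deep cells: *Ccl8* between macrophage-like and MHC II monocyte-like cells (-2.19), and *Ccl2* (0.22) and *Cxcl1* (0.036) between osteoblast-like and adipogenic cells. The same limit left 469 called genes for MHC II monocyte-like, 227 for osteoclast-like, 2834 for osteoblast-like and 1971 for contractile comparisons, beside 1215, 1897, 9480 and 8468. With no filter on low counts, 7959 genes were called between macrophage-like and granulocyte-like cells, beside 5216, and 1823 between macrophage-like and MHC II monocyte-like cells. Leaving out a pool, an alternative added after seeing the data, gave 750 to 1123 calls for MHC II monocyte-like cells (lowest without pool 5, and 751 without pool 6) and 1053 to 1902 for osteoclast-like cells (lowest without pool 1). Without the pool as a block the counts were 11179, 5227, 1210, 1425, 9056 and 7756 for the 6 comparisons, within 1.5 times of those with it. RLE size factors moved the median of all genes between the gates from -0.02 to -0.13, and that between macrophage-like and granulocyte-like cells from 0.09 to 0.26, which turned no called direction. Of 88 relations over pools under alternatives 84 kept their call. *Ccl2* with *Cxcl2* in myeloid cells lost it in 3 (second run, no pool 13, stricter gates) and *Cxcl1* with *Cxcl2* there in 1 (stricter gates). Thinning to 1000 UMIs moved 8 shares by at least their SD and left 12 within it, and the other alternatives moved none. Other causes were not tested.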

Other observations

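Basophil or mast cell-like cells, 202 in all, reached 20 cells in pools 6, 7 and 18 and entered no comparison. Their *Ccl6* level was 60.3 UMIs per 10000 in pool 18, 19.5 in pool 6 and 0.106 in pool 7. *Ccl3*, *Ccl4* and *Ccl9* were likewise highest in pool 18, at 24.3, 9.97 and 23.5, and lowest in pool 7, at 0.370, 0.212 and 0.212. With 3 pools that differ this far, no mean represents the class. *Ccl7* ranged from 0.899 to 1.41 in these pools, and *Cxcl5* had no UMI in these cells.

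Endothelial-like cells numbered 76 and reached 20 cells in no pool, so no mean is given. They held 951 *Ccl2* UMIs, 0.875% of all, at 0 to 43.2 UMIs per 10000 over the 15 pools with 1 to 15 such cells. Cells in neither gate nor another class, 8469 with a median of 1198 UMIs, had 4.61 ± 2.19 *Cxcl1* and 5.13 ± 3.37 *Cxcl2* UMIs per 10000 (SD, n = 16 pools), between the mesenchymal and the myeloid levels.

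Where UMIs were many, both runs of a pool gave nearly the same levels, with a median difference over pools of 0.678% for myeloid *Cxcl2* and 2.80% for myeloid *Ccl7*, 22.1% for mesenchymal *Ccl8* and 26.4% for myeloid *Cxcl5*, the last 2 resting on few UMIs in most pools. The greatest difference in a pool was 306% for myeloid *Ccl8* and 485% for mesenchymal *Cxcl5*, and 2.89% for myeloid *Cxcl2*.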
